A study of Mus musculus with 6 samples.

Results

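The genes described here are 39 genes of fatty acid oxidation and ketogenesis that were listed by name and not by a measured value. The list was chosen, though, with earlier results of these data known. A gene entered when the array's annotation gave its symbol to a probe. By that rule 37 of the 39 genes had a probe, 64 probes in all, out of 25697 probes and 16593 named genes on the array. Hadha and Acsl1 had no probe in the annotation and were not analysed here. Of the 37, 33 genes had a probe above background on all 6 arrays and entered the test, and Cpt1a, Crot, Fabp1 and Vnn1 did not. By the location of their products, 19 of the 39 genes were taken as mitochondrial and 9 as peroxisomal, 2 (Eci2 and Crat) as belonging to both, and 9 as cytosolic, membrane-bound or secreted.

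Expression was measured on Illumina BeadChips in whole livers of wild-type C57BL/6 mice, 3 given Ad-MafG and 3 given Ad-Control, which the labels also call Ad-CMV. Every mouse carried its adenovirus for 5 days and was fasted for 4 to 6 h before the liver was taken, and 1 mouse gave 1 array. The transcription factor MafG belongs to the small Maf proteins, which lack an activation domain of their own and bind DNA in pairs. Ad-MafG and Ad-Control are adenoviral vectors. The labels give neither sex nor age, nor the promoter of the MafG insert, and no group without virus was analysed here, so what both groups share from the vector was not measured.

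Fatty acids are burned in the liver by repeated removal of carbon pairs from their CoA esters. Long chains are made into acyl-CoA by synthetases, cross the mitochondrial membranes as carnitine esters and pass through a dehydrogenase, a hydratase, a second dehydrogenase and a thiolase, while electrons from the first step leave through the electron transfer flavoprotein. In fasting, the liver turns much of the resulting acetyl-CoA into ketone bodies. Peroxisomes run a similar cycle for very long and branched chains, starting with an oxidase in place of the first dehydrogenase. The nuclear receptor PPAR-alpha raises the transcription of many genes of both organelles during fasting, and thioesterases return acyl-CoA to free fatty acid and CoA.

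The only probe for Mafg gave a lower signal in the Ad-MafG livers, with normalized log2 intensities of 10.40, 10.30 and 10.30 in Ad-MafG livers, against 10.84, 10.72 and 11.04 in Ad-Control livers (limma log2 fold change -0.54, adjusted p = 0.0343). No source used here says whether that probe reads the vector's insert, so it does not check the labels, on which every direction below rests. The arrays differed in brightness: the median raw signal was 181.6 to 185.8 in Ad-MafG livers and 160.6 to 180 in Ad-Control livers. Between 12802 and 13042 probes were detected on Ad-MafG arrays and between 12079 and 12608 on Ad-Control arrays. The hepatocyte markers Apoa1 and Ttr were bright on every array, at 15.11 or more on the normalized log2 scale, while the probe for Alb was dim, with a mean of 6.37 in Ad-MafG livers and 6.72 in Ad-Control livers. All values below are normalized log2 intensities of 1 probe per gene unless another scale is named, and a fold change is Ad-MafG over Ad-Control. Since levels of different probes cannot be set against each other, comparisons are made within a gene. Sums over marker genes add unlogged values, are compared only between livers, and are weighted towards the brightest probes.

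Promoter sequence is shown for 4 genes of the list. Acsl4 was the only gene of the pathway list past the threshold, Acot2 had the largest difference, and Ehhadh and Acot3 are peroxisomal genes with log2 fold changes of opposite sign that hold the core motif of the antioxidant response element. NRF2 binds that element as a dimer with a small Maf protein. Neither Ehhadh nor Acot3 passed the threshold, and only 3 genes of the list hold the motif in a promoter. The sequences run from 250 bases before to 50 bases after the gene's start, are taken from RefSeq on build GRCm38.p6, and are not tied to a build named by the array files. Capitals mark the motif TGACNNNGC on either strand, and the sequences of Acsl4 and Acot2 hold none.
Acsl4 (chrX:142390486-142390785, minus strand): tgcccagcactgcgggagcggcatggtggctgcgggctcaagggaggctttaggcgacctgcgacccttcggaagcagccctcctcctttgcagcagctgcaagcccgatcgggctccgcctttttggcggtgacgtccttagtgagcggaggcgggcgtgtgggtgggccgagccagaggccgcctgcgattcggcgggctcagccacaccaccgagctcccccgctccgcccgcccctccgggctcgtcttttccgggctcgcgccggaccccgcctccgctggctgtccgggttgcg
Acot2 (chr12:83987611-83987910, plus strand): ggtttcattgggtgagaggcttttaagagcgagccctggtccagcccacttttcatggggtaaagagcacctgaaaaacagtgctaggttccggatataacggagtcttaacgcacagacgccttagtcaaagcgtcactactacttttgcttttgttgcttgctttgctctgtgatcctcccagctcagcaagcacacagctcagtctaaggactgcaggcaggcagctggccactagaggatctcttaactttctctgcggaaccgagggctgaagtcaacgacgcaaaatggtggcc
Ehhadh (chr16:21787785-21788084, minus strand): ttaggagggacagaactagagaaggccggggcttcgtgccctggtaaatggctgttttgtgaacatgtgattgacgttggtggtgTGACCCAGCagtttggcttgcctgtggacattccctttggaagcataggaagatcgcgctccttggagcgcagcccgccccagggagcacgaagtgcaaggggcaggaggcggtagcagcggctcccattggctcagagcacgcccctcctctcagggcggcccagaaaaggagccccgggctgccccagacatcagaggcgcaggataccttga
Acot3 (chr12:84051894-84052193, plus strand): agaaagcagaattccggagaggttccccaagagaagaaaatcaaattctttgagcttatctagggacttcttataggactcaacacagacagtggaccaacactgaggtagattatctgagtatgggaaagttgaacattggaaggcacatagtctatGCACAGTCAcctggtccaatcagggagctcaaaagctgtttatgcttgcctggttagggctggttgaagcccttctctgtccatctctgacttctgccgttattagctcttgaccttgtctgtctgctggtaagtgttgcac

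Promoters were found for 35 of the 39 genes. Searched on both strands, TGACNNNGC lay in 4 of the 39 promoters of these genes, against 12.4% of all 32851 promoters of the same length. The 4 promoters belong to 3 genes, Acot3, Ehhadh and Fabp1. A direct repeat of the kind PPAR-alpha binds, AGGNCA followed by any 1 base and AGGNCA again, lay in 1 of the 39 promoters, from Fabp1. Of all promoters 0.381% held it. A match describes the letters only, and binding was not measured.

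In Ad-MafG livers 1 of the 33 genes rose and 0 fell, and the other 32 missed the threshold, an adjusted p under 0.05 by limma with Benjamini-Hochberg adjustment over all genes. This was 3.03% of the genes, against 9.88% of all 8827 genes tested, of which 6.28% rose and 3.6% fell. At an unadjusted p under 0.05 there were 11 of the 33, against 29.8% of all genes. The share past the threshold depended on the processing: with no background correction it was 24.2% of the 33, against 15.0% of all genes. With an offset of 50 it was 12.1% against 13.0%. The differences were of ordinary size for this experiment, since the median absolute log2 fold change was 0.20 over the 33 genes and 0.21 over all genes. For 28 of the 33 genes the 95% interval of the log2 fold change lay between -1 and 1, that is, within a 2-fold difference either way. The median SD between livers of 1 group was 0.11 in Ad-MafG livers and 0.14 in Ad-Control livers over the 33 genes, against 0.14 and 0.16 over all genes.

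Slightly more of the genes lay lower than higher, with 20 of 33 below 0 (60.6%), against 52.8% of all genes. The median log2 fold change was -0.10, against -0.02 over all genes. The median of the list also lay below that of all genes in the 18 alternative treatments of the data, by 0.04 to 0.25. These reuse the same 6 arrays, and some leave the fold changes as they were, so they are not independent checks. The 3 Ad-MafG values lay all above the 3 Ad-Control values for 5 genes and all below for 9 genes, together 42.4% of the 33, against 36.2% of all genes. Of 7 tested hepatocyte markers 0 passed the test, and 7 of 7 were below 0, with a median of -0.19. Their summed normalized intensity was 115945 to 120433 in Ad-MafG livers and 123433 to 132011 in Ad-Control livers. The part of the hepatocyte share in the pathway's values was not tested, and in whole liver fewer hepatocytes and less RNA per hepatocyte cannot be told apart.

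**Figure D1:**
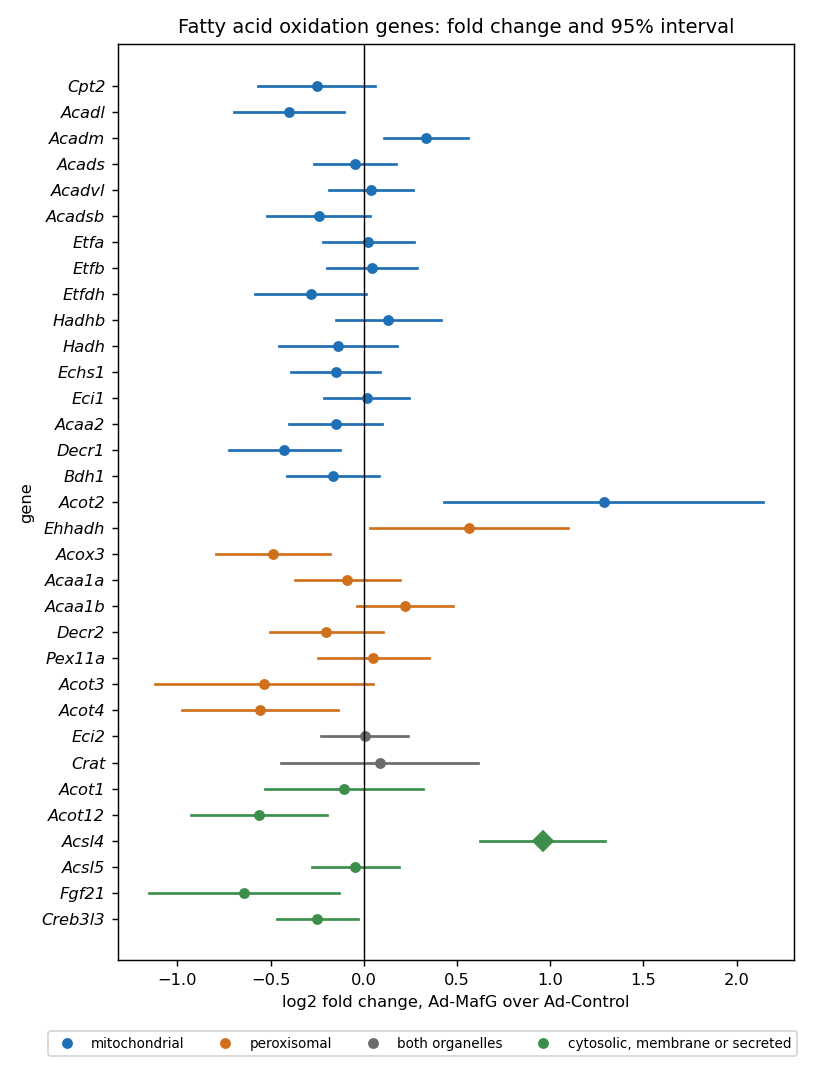
Log2 fold change of each of the 33 tested genes, Ad-MafG over Ad-Control, with limma's 95% interval (bars) and colours for the location of the product. Acsl4 (diamond, 0.96) is the only gene past an adjusted p of 0.05, and Acot2 has the highest value (1.29) with the widest interval.

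Acsl4, a synthetase that activates long-chain fatty acids with a preference for arachidonic acid, was the gene that rose. Its values were 9.68, 9.41 and 9.48 in Ad-MafG livers, against 8.82, 8.42 and 8.45 in Ad-Control livers. Every Ad-MafG liver lay above every Ad-Control liver, with means of 9.52 ± 0.14 in Ad-MafG livers and 8.56 ± 0.22 in Ad-Control livers (SD, n = 3 each). The difference was 1.94-fold, or 0.96 ± 0.14 (SE) on the log2 scale (limma adjusted p = 0.0144). The raw bead signal of the same probe was 1052.8, 865.3 and 934.8 in Ad-MafG livers and 481.5, 473.5 and 413.8 in Ad-Control livers. Another 2 Acsl4 probes had log2 fold changes of 0.84 and 0.52, and the remaining probe was not above background on any array. Acsl4 passed in 16 of 18 alternatives. It missed the threshold when Ad-MafG 1 was left out, with an adjusted p of 0.0578, and likewise for Ad-MafG 3, with an adjusted p of 0.0526.

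Acsl4 is also made by macrophages and other non-parenchymal cells. Of 9 tested markers of Kupffer cells and macrophages, 5 rose and 0 fell, or 55.6% against 9.88% of all genes. Their median log2 fold change was 0.77. Of these 9 markers 7 were above 0, among them Clec4f and Vsig4, which mark resident Kupffer cells. The 2 below 0, Timd4 and Marco, also mark resident Kupffer cells and did not pass. Timd4 had -1.48 with overlapping groups (adjusted p = 0.25), and Marco had -1.06 without overlap (adjusted p = 0.102). Cd68 and Csf1r were not analysed here. The summed normalized intensity of the 9 tested markers was 23616 to 26442 in Ad-MafG livers and 12076 to 15593 in Ad-Control livers. Of 12 tested markers of stellate cells and fibroblasts, 4 rose and 0 fell, or 33.3%. Their sums were 19858 to 22971 in Ad-MafG livers and 17389 to 20795 in Ad-Control livers. The part of these cells in the rise of Acsl4 was not tested. Acsl5, a synthetase of hepatocytes and intestine, had a log2 fold change of -0.05 (95% interval -0.28 to 0.19, adjusted p = 0.793).

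Entry into mitochondria was represented by Cpt2, which takes the acyl group off carnitine at the inner membrane. It had 12.34, 12.38 and 12.10 in Ad-MafG livers, against 12.67, 12.33 and 12.58 in Ad-Control livers, and the groups overlapped. Its log2 fold change was -0.25 with a 95% interval of -0.57 to 0.06. The outer-membrane enzyme Cpt1a, the controlled step of entry, could not be assessed, because no array showed its probe above background. Its raw signal was 148.4 to 168.3 in Ad-MafG livers and 148.9 to 154.7 in Ad-Control livers, with detection p-values from 0.1 to 0.393.

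The acyl-CoA dehydrogenases, which share 1 reaction and differ in the chain length they accept, differed in sign, and 0 of 5 passed the test. Acadm, the medium-chain enzyme, had 14.71, 14.68 and 14.85 in Ad-MafG livers, against 14.44, 14.41 and 14.40 in Ad-Control livers. All Ad-MafG livers were higher, but the log2 fold change of 0.33 (SE 0.10) had an adjusted p of 0.0685. Acadl, the long-chain enzyme, lay the other way, with 10.36, 10.53 and 10.25 in Ad-MafG livers, against 10.78, 10.63 and 10.93 in Ad-Control livers. Its log2 fold change was -0.40 (SE 0.13, adjusted p = 0.0835), without overlap between the groups. Acadsb, which acts on short branched chains from isoleucine, had -0.24 (adjusted p = 0.218), also without overlap. Acadvl, the very-long-chain enzyme, had 0.04 and Acads, the short-chain enzyme, -0.05, with 95% intervals of -0.19 to 0.27 and -0.27 to 0.17. Second probes of Acadm, Acadl and Acads had the same sign as the first, at 0.26, -0.48 and -0.29, the last of these further from 0 than the -0.05 of the first Acads probe.

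Of 3 tested genes of electron transfer from these enzymes, 0 passed the test. The 2 flavoprotein subunits Etfa and Etfb had log2 fold changes of 0.02 and 0.04, with 95% intervals of -0.22 to 0.27 and -0.20 to 0.29. Their further probes were all below 0, down to -0.12 for each gene. Both genes lay below 0 with median scaling (-0.19 and -0.15) and with the authors' scaled values (-0.21 and -0.17). Etfdh, which passes the electrons on to ubiquinone, had -0.29 (95% interval -0.58 to 0.01, adjusted p = 0.184), and its second probe had -0.50.

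Of 6 tested genes of the later mitochondrial steps, 0 passed the test, and 4 were below 0. Decr1, the reductase required for unsaturated chains, had the lowest value of the mitochondrial group. It had 10.28, 10.27 and 10.08 in Ad-MafG livers, against 10.73, 10.42 and 10.74 in Ad-Control livers. The groups did not overlap, and the log2 fold change of -0.43 (SE 0.13) had an adjusted p of 0.0744. The thiolase Acaa2, at -0.15, also had groups that did not overlap. Hadhb, the thiolase subunit of the trifunctional protein, had 0.13, the short-chain dehydrogenase Hadh -0.14, the hydratase Echs1 -0.15 and the isomerase Eci1 0.01. For these last 4 genes the 95% intervals ran from -0.45 at the lowest to 0.41 at the highest.

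Ketone body metabolism was represented among the tested genes by Bdh1, the mitochondrial enzyme that interconverts acetoacetate and beta-hydroxybutyrate. Bdh1 had 12.28, 12.12 and 12.25 in Ad-MafG livers, against 12.27, 12.43 and 12.46 in Ad-Control livers. The groups overlapped, and the log2 fold change was -0.17 with a 95% interval of -0.41 to 0.08. A second Bdh1 probe had -0.36.

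Of the 8 tested peroxisomal genes 0 passed the test, and 3 were above 0 and 5 below. Ehhadh, the bifunctional hydratase and dehydrogenase of the peroxisomal cycle and a known PPAR-alpha target, had 11.75, 11.87 and 11.95 in Ad-MafG livers, against 11.74, 10.79 and 11.35 in Ad-Control livers. All Ad-MafG livers were higher, the nearest Ad-Control liver by a narrow margin. The difference was 0.56 ± 0.23 (SE) on the log2 scale, and it did not pass (adjusted p = 0.149). It was 0.31 without Ad-Control 2 and 0.78 without Ad-Control 1, and passed in neither case (adjusted p = 0.2 and 0.0729). Acox3, an oxidase of branched chains, had 8.25, 8.29 and 7.95 in Ad-MafG livers, against 8.60, 8.55 and 8.79 in Ad-Control livers. The groups did not overlap, but the log2 fold change of -0.49 (SE 0.13) had an adjusted p of 0.0571.

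The remaining genes of the peroxisomal cycle differed less. The thiolases Acaa1a and Acaa1b had log2 fold changes of -0.09 and 0.22 (adjusted p = 0.655 and 0.22). Acaa1b had 15.01, 14.97 and 14.94 in Ad-MafG livers, against 14.82, 14.59 and 14.85 in Ad-Control livers, without overlap. These 2 genes are close copies, and their separate values are uncertain. The reductase Decr2 had -0.20, and Pex11a, which acts in peroxisome division, had 0.05 (95% interval -0.25 to 0.35), with its other probes down to -0.05. Crot, which makes carnitine esters in peroxisomes, was not above background on any array. Eci2 and Crat, found in both organelles, had 0.01 and 0.09, and 2 further Crat probes were below 0, the lower at -0.21.

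Set side by side, the organelles had nearly the same middle value. The median log2 fold change was -0.14 over 17 mitochondrial genes and -0.14 over 8 peroxisomal genes, a difference of 0.01. In single livers the mitochondrial median minus the peroxisomal one was -0.14, 0.01 and 0.05 in Ad-MafG livers and -0.07, -0.09 and 0.06 in Ad-Control livers, on a scale where each gene is set to its mean over the 6 livers. Livers of 1 group thus differed more than the groups did. Single genes lay from -0.43 (Decr1) to 1.29 (Acot2) in the mitochondrial group and from -0.56 (Acot4) to 0.56 (Ehhadh) in the peroxisomal group.

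**Figure D2:**
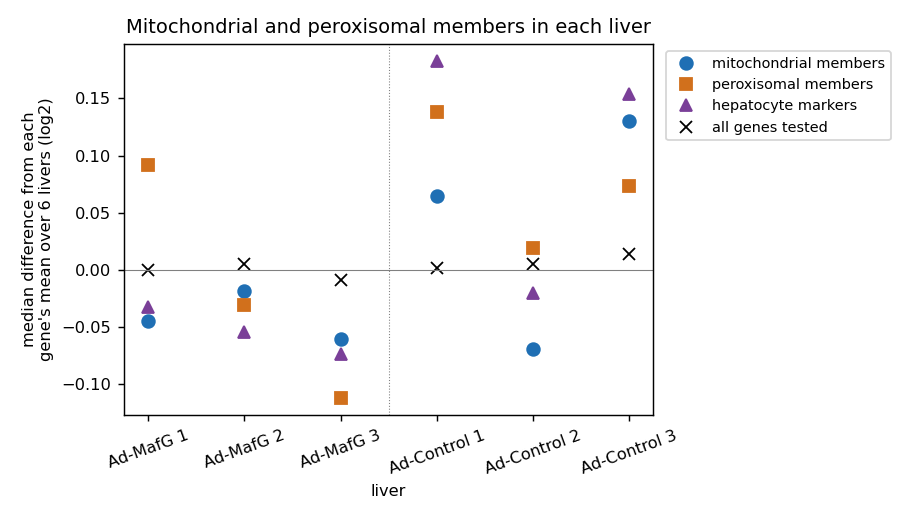
Median over genes of the difference from each gene's mean over the 6 livers (log2), per liver, for mitochondrial members (circles), peroxisomal members (squares), hepatocyte markers (triangles) and all genes tested (crosses). The mitochondrial median is 0.13 in Ad-Control 3 and -0.07 in Ad-Control 2, a wider gap than among the 3 Ad-MafG livers.

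Of 5 tested acyl-CoA thioesterases 0 passed the test, with 1 above 0 and 4 below. Acot2, the mitochondrial long-chain enzyme, had 8.94, 8.79 and 8.98 in Ad-MafG livers, against 8.54, 7.32 and 6.99 in Ad-Control livers. The Ad-MafG livers lay close together and above all Ad-Control livers, which were spread wide. The difference was 2.44-fold, or 1.29 ± 0.36 (SE) on the log2 scale, and did not pass (adjusted p = 0.0661). Without Ad-Control 1 it was 1.75 and passed (adjusted p = 0.0177), and without Ad-Control 3 it was 0.97 (adjusted p = 0.154). A second Acot2 probe, detected on 3 of the 6 arrays, had a log2 fold change of 0.05, so the difference rests on 1 probe.

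The other 4 thioesterases had log2 fold changes below 0. Acot12, a cytosolic acetyl-CoA hydrolase, had 10.89, 10.90 and 10.55 in Ad-MafG livers, against 11.25, 11.18 and 11.60 in Ad-Control livers. Its groups did not overlap, and the difference was -0.56 on the log2 scale (SE 0.16), which did not pass (adjusted p = 0.0618). Acot4, a peroxisomal enzyme, had 10.72, 10.40 and 10.09 in Ad-MafG livers, against 11.16, 10.83 and 10.88 in Ad-Control livers, again without overlap (log2 fold change -0.56, adjusted p = 0.0888). The peroxisomal Acot3 had -0.54, with overlapping groups (adjusted p = 0.199). The cytosolic Acot1 had -0.10, with a 95% interval of -0.53 to 0.32, and its second probe had -0.39.

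Acot2, Acot1, Acot4 and Acot3 follow one another in that order on chromosome 12 in the RefSeq gene table. They are close in sequence, so their separate values are uncertain. Acot2 was the only one of the 4 above 0, and Acot2 against its neighbours was not tested.

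**Figure D3:**
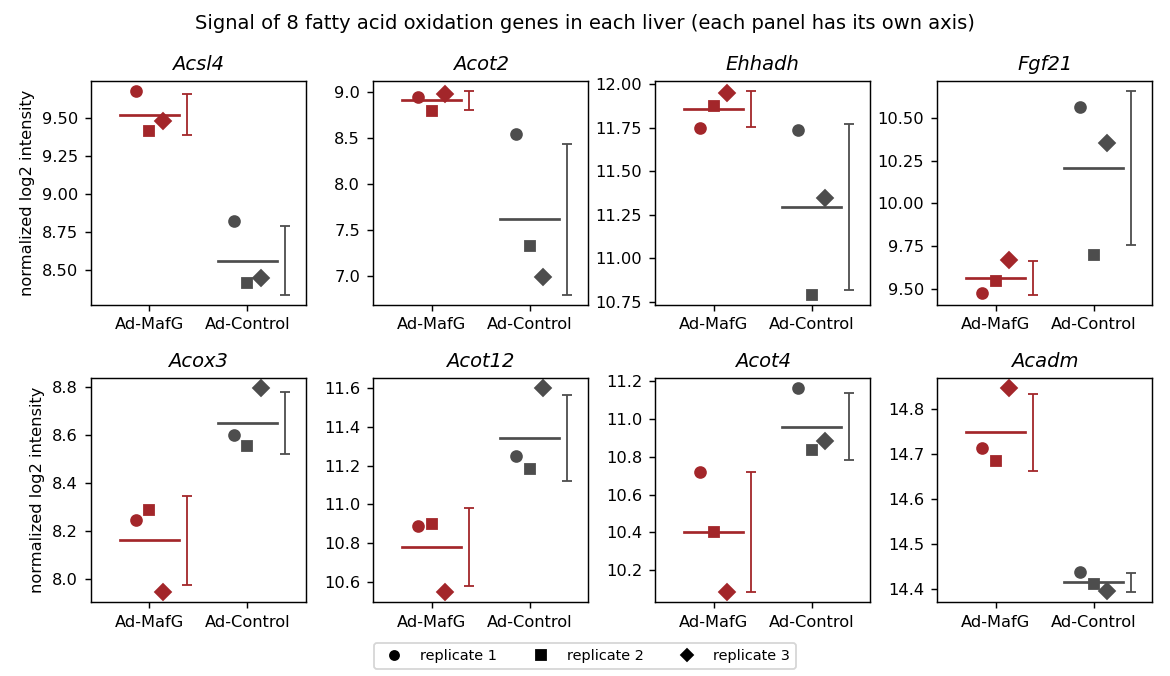
Normalized log2 intensity of 8 genes in each liver, Ad-MafG left and Ad-Control right, with symbols for the replicate, a line for the group mean and a bar of 1 SD each way (n = 3 each). All 8 genes are among the 14 of 33 whose groups do not overlap, so the panels do not show how often that occurs. Over all genes tested 36.2% do not overlap. Ad-Control livers are spread wider than Ad-MafG livers for Acot2 (SD 0.82), Ehhadh (SD 0.48), Fgf21 (SD 0.45), Acsl4 (SD 0.22) and Acot12 (SD 0.22). Ad-MafG livers are spread wider for Acot4 (SD 0.32), Acox3 (SD 0.19) and Acadm (SD 0.09).

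Of the genes linked to PPAR-alpha outside the oxidation steps, Fgf21 and Creb3l3 could be tested, and neither passed. Fgf21, a liver hormone induced by fasting through PPAR-alpha, had 9.48, 9.54 and 9.67 in Ad-MafG livers, against 10.56, 9.70 and 10.36 in Ad-Control livers. The groups did not overlap, but Ad-Control 2 lay next to the Ad-MafG livers. The log2 fold change of -0.64 (SE 0.22) had an adjusted p of 0.1. Creb3l3, a membrane-bound transcription factor that acts with PPAR-alpha in fasting, had 11.88, 11.92 and 11.83 in Ad-MafG livers, against 12.07, 12.14 and 12.17 in Ad-Control livers. The groups did not overlap, but the difference of -0.25 on the log2 scale (SE 0.09) did not pass (adjusted p = 0.125).

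Fabp1, the fatty acid binding protein of the liver, and Vnn1, a pantetheinase induced by PPAR-alpha, could not be assessed. Their raw signals were 117.2 to 142.2 and 124.6 to 139.8 over the 6 arrays, with detection p-values of 0.485 or more. Neither probe was above background on any array.

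One Ad-Control liver stood low across the pathway, a pattern chosen after its values were seen. Ad-Control 2 was the lowest of the 3 Ad-Control livers for 24 of the 33 genes and the highest for 0. Over all genes tested it was lowest for 36.5% and highest for 35.3%. It was lowest for 12 of 17 mitochondrial and 6 of 8 peroxisomal genes, and also for 6 of 7 hepatocyte markers. Without Ad-Control 2, 3 of the 33 genes passed: Acsl4 rose, and Decr1 (log2 fold change -0.53, adjusted p = 0.0347) and Fgf21 (log2 fold change -0.90, adjusted p = 0.0155) fell. Without this liver 9.09% of the 33 genes passed, against 13.5% of all genes tested. What sets this liver apart was not tested.

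Other genes of fatty acid breakdown, from a list of 35 of which 26 were tested, held 2 that rose and 2 that fell, or 15.4% against 9.88% of all genes. Their median log2 fold change was 0.00. Abcd2, a peroxisomal transporter of very-long-chain acyl-CoA, had 8.01, 7.77 and 8.17 in Ad-MafG livers, against 6.67, 6.59 and 6.95 in Ad-Control livers. It rose 2.38-fold, or by 1.25 ± 0.15 (SE) on the log2 scale (adjusted p = 0.00998). Oxct1, which lets cells outside the hepatocyte use ketone bodies, had 9.27, 9.0 and 9.19 in Ad-MafG livers, against 8.24, 8.52 and 7.64 in Ad-Control livers, and rose 2.03-fold (adjusted p = 0.0352).

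The 2 genes of that list that fell were Pccb and Acad10. Pccb, a subunit of propionyl-CoA carboxylase, which takes up the end product of odd-numbered chains, had 11.01, 11.05 and 10.65 in Ad-MafG livers, against 11.92, 11.59 and 11.76 in Ad-Control livers. It fell by 0.85 on the log2 scale (SE 0.15, adjusted p = 0.0206), and Acad10, a member of the dehydrogenase family, fell by 0.59 (SE 0.11, adjusted p = 0.0251).

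Of 12 tested genes of fatty acid uptake and release, 2 rose and 1 fell, or 25% against 9.88% of all genes. Lpl, the lipase that frees fatty acids from circulating triglyceride and is low in healthy adult hepatocytes, had 12.64, 12.42 and 13.22 in Ad-MafG livers, against 10.95, 11.51 and 10.70 in Ad-Control livers. It rose 3.26-fold, or by 1.71 ± 0.27 (SE) on the log2 scale (adjusted p = 0.0163). The fatty acid transport proteins differed in sign: Slc27a4 rose by 0.77 on the log2 scale (adjusted p = 0.0238), while Slc27a5, which activates bile acids and very long chains, had -0.71 (adjusted p = 0.0251). Pnpla2, the lipase of lipid droplets, had 0.24 and did not pass.

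Among 22 tested genes of PPAR-alpha and its further targets, 1 rose and 1 fell, or 9.09% against 9.88% of all genes. Of the 22, 17 were below 0, against 52.8% of all genes. At an unadjusted p under 0.05 by limma there were 12, against 29.8% of all genes. The groups did not overlap for 13 of them (2 higher, 11 lower), or 59.1% against 36.2% of all genes. The median log2 fold change of the 22 was -0.38, against -0.02 over all genes. Cidec, a lipid droplet protein, rose by 0.50 on the log2 scale (adjusted p = 0.0258), and Rxra, the dimer partner of PPAR-alpha, fell by 0.45 (adjusted p = 0.0446). The carnitine importer Slc22a5 had -0.78 (adjusted p = 0.0532) and the fatty acid hydroxylase Cyp4a31 -0.81 (adjusted p = 0.0548).

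Of 15 tested genes of peroxisome biogenesis and membrane, 0 rose and 2 fell, or 13.3% against 9.88% of all genes. Their median was -0.07. Pex26 had a log2 fold change of -0.70 (SE 0.11, adjusted p = 0.0174), and Pex6, the ATPase that Pex26 anchors to the peroxisome, had -0.39 (SE 0.09, adjusted p = 0.0411). Pex6 had 11.73, 11.71 and 11.76 in Ad-MafG livers, against 12.13, 12.08 and 12.14 in Ad-Control livers. The membrane protein gene Pxmp2 had -0.65 (adjusted p = 0.0765) and catalase, Cat, 0.24 (adjusted p = 0.168), and neither passed.

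**Figure D4:**
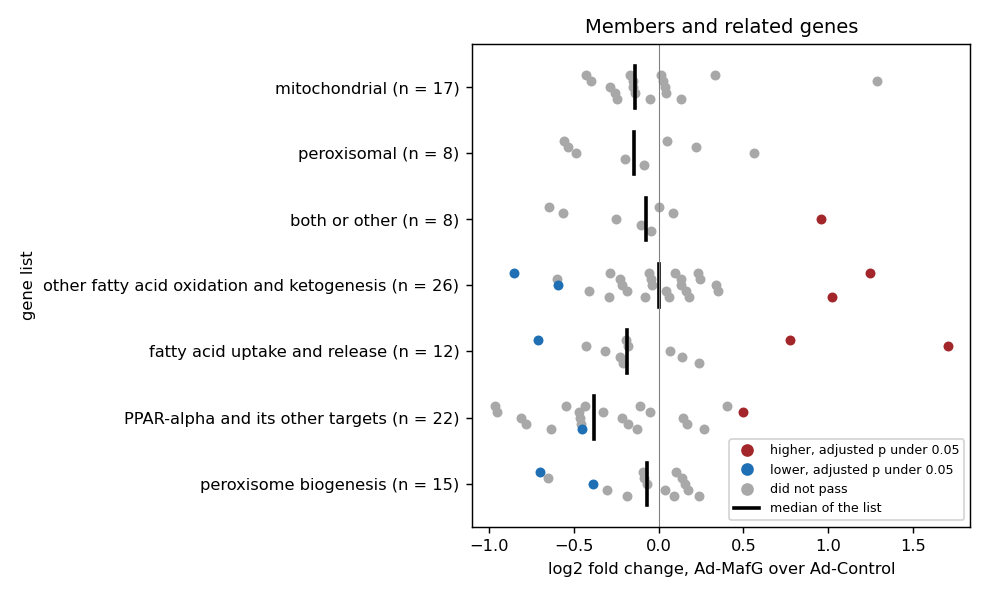
Log2 fold change of each tested gene, Ad-MafG over Ad-Control, for the members by location and for 4 lists of related genes, with red for higher and blue for lower at an adjusted p under 0.05, grey for genes that did not pass and a black line at each median. The list of PPAR-alpha and its other targets has the lowest median (-0.38), and 1 member, Acsl4, is coloured.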

How the data were processed

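Per the file headers, the deposited non-normalized table holds mean bead intensity per probe and array with a detection p-value, the chance that background alone is as bright. A deposited series table holds intensity values the authors had background-subtracted and scaled, and the authors' deposited table of group means has a signed difference score. The sources used here name no software for these steps.

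Intensities were background-corrected with normexp from the detection p-values, given an offset of 16, quantile normalized and taken to log2 (limma 3.58.1, R 4.3.3). A probe was kept when its detection p was under 0.05 on 3 or more of the 6 arrays, which left 12893 of 25697. Genes came from the platform annotation, and the brightest probe stood for its gene, which left 8827 genes. The comparison used lmFit and eBayes with no covariate, and two-sided p-values were adjusted by Benjamini-Hochberg over all genes. Replicate numbers did not pair the livers. All arrays lay on 1 slide. The number of arrays limits the precision.

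The members and lists were chosen with earlier results of these data known. Named were every member and, of each related list, the 4 tested genes with the smallest unadjusted p. The alternatives were no background correction, the signal as deposited, median scaling, cyclic loess, an offset of 50, the authors' scaled values, other detection filters, a mean over probes, other eBayes settings, array weights, a replicate block and each array left out. In simulated data of the 8827 genes with 200 changed, the same fit called 70% of 2-fold and 96% of 4-fold changes, and 7.26% of its calls were false. Cell type markers also covered sinusoidal endothelium (0 of 7 tested past the threshold), cholangiocytes (0 of 1), T and NK cells (0 of 6), B and plasma cells (0 of 2), neutrophils (0 of 3) and erythroid cells (1 of 2, lower).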

Additional observations from a re-analysis of the deposited data

How the results depend on the processing

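Acsl4 passed the test in 16 of 18 alternatives and 23 of the 33 genes passed in none. The count of members past the threshold, 1 as reported, was 8 with no background correction (3 higher, 5 lower), 7 with trend and robust eBayes (2 higher, 5 lower), 5 with a detection p under 0.01 on all 6 arrays, 4 with an offset of 50, 4 with the signal as deposited, 3 with array weights, and 2 each with median scaling and with the mean over probes. With each array left out in turn it was 0 to 3: 0 without Ad-MafG 1 or Ad-MafG 3, 2 without Ad-Control 1 and 3 without Ad-Control 2. The genes that passed in some of these were Acadl, Acadm, Decr1, Acot2, Ehhadh, Acox3, Acot4, Acot12 and Fgf21, the cause was not tested, and each kept the sign reported. The count over all genes, 872, was 1322 with no background correction, 1317 with trend and robust eBayes, 2328 with the signal as deposited and 69 with the replicate block, and 96 (without Ad-MafG 1) to 1176 (without Ad-Control 2) with each array left out. It was 278 without Ad-MafG 2, 157 without Ad-MafG 3, 332 without Ad-Control 1 and 247 without Ad-Control 3. Of the calls over all genes 554 were higher and 318 lower as reported, against 2202 and 126 with the signal as deposited and 797 and 261 with median scaling. The share of members exceeded that of all genes with no background correction (24.2% against 15.0%) and trend and robust eBayes (21.2% against 14.9%). It was 15.2% against 14.7% with a detection p under 0.01 on all 6 arrays. It was lower with an offset of 50 (12.1% against 13.0%), the signal as deposited (12.1% against 26.4%) and array weights (9.09% against 13.1%). The signal as deposited is not normalized, and there the median of all genes was 0.21. The replicate numbers did not pair the samples: deviations of same-numbered livers correlated at 0.04, -0.14 and -0.12, and with the replicate block 1 member, Acsl4, passed (adjusted p = 0.047). The difference between the mitochondrial and peroxisomal medians stayed between -0.03 and 0.08. Low signal over background leaves Cpt1a, Crot, Fabp1 and Vnn1 unassessed, and 3 livers a group limit the precision.

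Signs that turned belong to genes that did not pass either way, with reported log2 fold changes from -0.20 (Decr2) to 0.13 (Hadhb). With the signal as deposited the log2 fold change was 0.18 for Acads and Hadh, 0.037 for Bdh1, 0.028 for Decr2 and 0.026 for Acsl5. With median scaling it was -0.085 for Acadvl, -0.19 for Etfa, -0.15 for Etfb, -0.075 for Eci1, -0.063 for Pex11a and -0.047 for Eci2. With the authors' scaled values it was -0.11 for Acadvl, -0.21 for Etfa, -0.17 for Etfb, -0.024 for Hadhb, -0.099 for Eci1, -0.088 for Pex11a and -0.072 for Eci2. With the mean over probes it was -0.053 for Etfa, -0.038 for Etfb, -0.015 for Pex11a and -0.048 for Crat. With array weights it was -0.0044 for Eci2 and -0.042 for Crat, and with cyclic loess -0.024 for Etfa. With each array left out in turn, Etfa ranged over -0.035 to 0.063, Eci1 over -0.035 to 0.051, Acaa1a over -0.15 to 0.0049, Pex11a over -0.046 to 0.12, Etfb over -0.0085 to 0.091, Eci2 over -0.039 to 0.047, Crat over -0.062 to 0.32, Acot1 over -0.28 to 0.060 and Acadvl over -0.0080 to 0.063.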
